A study of Homo sapiens with 2 samples.

Results

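The genes described are 39 genes of hypoxia and glycolysis, taken by symbol from the 36601 genes of a single-cell count matrix of human breast cancer cell lines. They comprise 4 transporters of glucose and lactate, 16 glycolytic enzymes, regulators of glycolytic flux, carbonic anhydrases, secreted factors, 5 oxygen-dependent dioxygenases, a matrix enzyme, mitophagy receptors and other genes known to respond to low oxygen. All 39 symbols stood on 1 row each, and 36 were measured, which here means a level of at least 10 CPM (UMIs of the gene per 1 M gene UMIs) in at least 1 cell group. CA9, PFKFB4 and ALDOC stayed under that level in every group.

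Cells sense oxygen through prolyl hydroxylases of the EGLN family, which mark the alpha subunits of the hypoxia-inducible factors (HIF) for degradation by the VHL ubiquitin ligase. When oxygen is short, HIF binds a short core sequence near its target genes and raises glucose uptake, glycolysis, lactate export, mitophagy and angiogenic signals. Many tumour cells also run glycolysis at high rates in the presence of oxygen. Some of these genes answer to other stress pathways too, such as the transcription factor ATF4 of the amino acid and unfolded protein responses.

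The study profiled 6 cell lines by droplet-based 3′ single-cell RNA sequencing, each line marked with its own lipid-anchored oligo and mixed into 2 pools. Pool A held BT-474, MDA-MB-231 and MDA-MB-453, and pool B held HCC38, Hs578T and MDA-MB-436. BT-474 and MDA-MB-453 are of luminal type with altered HER2, and the other lines are triple-negative. No treatment, oxygen tension or growth medium is given in the sources used here. Each line is 1 culture in 1 pool, so no test across samples was possible, intervals cover counting error only, and differences between the pools cannot be told apart from differences between their lines.

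The labels do not tie an oligo to a line, so the 6 groups of barcodes sharing an oligo were named from marker genes of the lines. The groups led between 3 and 10 markers of the line whose name they carry. Of the markers of other lines, BT-474-like cells led 2 of MDA-MB-453 (HPGD and DHRS2), Hs578T-like cells 2 of HCC38 (KRT14 and KRT17) and MDA-MB-436-like cells 1 of MDA-MB-231 (TFPI2). The MDA-MB-436-like name rests on 3 markers (CDKN2A, UCHL1 and PRAME) and on the pool that the labels give. Of these markers, UCHL1 and PRAME were also abundant in the HCC38-like group, and PRAME also in the Hs578T-like group. PRAME was at 83.2 CPM in MDA-MB-436-like, 34.9 in Hs578T-like and 34.0 in HCC38-like cells. RB1, a tumour suppressor, was at 4.92 CPM in the MDA-MB-436-like group and between 33.1 and 81.0 CPM elsewhere. The filter on at least 10000 UMIs and at most 20% mitochondrial UMIs left 15236 of 17605 barcodes, with 1953 to 3419 cells and 70.0 M to 96.1 M UMIs per group. Median UMIs per cell lay between 20393 and 38404. The median mitochondrial share was 14.6% in BT-474-like cells and 5.85% to 9.85% in the other groups. None of 9 markers of blood, endothelial or liver cells reached 10 CPM in any group. Across the captures, 22 barcode sequences occurred in 2 groups, and 0 of the 19 kept ones did so within a capture. Markers of a line appeared in the other lines of its capture at a median of 1.24% to 5.13% of their own level, apart from the MDA-MB-436 markers in HCC38-like cells at 40.9%. For some members, a low level beside a high one in the same capture is set against these shares below. Other low levels may carry the same limit.

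The promoters of 4 members that moved together from cell to cell in one of the groups are shown first, each in its window with the most HIF core sequences. Each line gives the 250 bases before a RefSeq transcription start (GRCh38.p14), 5′ to 3′ on the strand of the gene, with the cores ACGTG and GCGTG in capitals. A core on the other strand reads CACGT or CACGC, and CACGTG holds 1 core on each strand, which are counted as 2 overlapping cores. BNIP3 is shown from chr10:131981924-131982173 on the minus strand, LDHA from chr11:18394313-18394562, PGK1 from chrX:78103998-78104247 and TPI1 from chr12:6867855-6868104, all 3 on the plus strand.
BNIP3: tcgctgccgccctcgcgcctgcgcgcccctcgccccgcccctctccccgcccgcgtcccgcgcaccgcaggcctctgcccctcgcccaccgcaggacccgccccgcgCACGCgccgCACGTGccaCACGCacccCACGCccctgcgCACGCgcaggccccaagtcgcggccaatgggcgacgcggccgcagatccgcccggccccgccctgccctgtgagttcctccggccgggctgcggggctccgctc
LDHA: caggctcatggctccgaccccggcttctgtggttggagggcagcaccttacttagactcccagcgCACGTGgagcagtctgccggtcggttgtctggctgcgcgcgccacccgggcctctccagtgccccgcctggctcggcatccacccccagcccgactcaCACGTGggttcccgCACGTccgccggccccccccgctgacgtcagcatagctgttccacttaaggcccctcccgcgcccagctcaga
PGK1: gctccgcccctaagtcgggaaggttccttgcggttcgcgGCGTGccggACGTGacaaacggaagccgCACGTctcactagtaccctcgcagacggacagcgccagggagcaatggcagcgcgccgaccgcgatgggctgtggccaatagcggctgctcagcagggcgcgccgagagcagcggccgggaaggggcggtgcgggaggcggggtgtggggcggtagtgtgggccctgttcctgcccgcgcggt
TPI1: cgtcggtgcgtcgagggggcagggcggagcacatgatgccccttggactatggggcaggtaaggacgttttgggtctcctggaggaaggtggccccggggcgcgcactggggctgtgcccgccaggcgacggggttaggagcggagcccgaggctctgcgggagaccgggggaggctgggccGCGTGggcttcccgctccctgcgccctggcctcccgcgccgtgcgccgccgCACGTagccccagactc

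The BNIP3 window held 6 cores, the LDHA window 5, the PGK1 window 3 and the TPI1 window 2. The second RefSeq window of LDHA held 1 core and that of TPI1 held 0. RefSeq windows were found for 34 members, and 28 of these had a core in at least 1 window. Of the 57 windows of members, 39 (68.4%) held a core, against 43.2% of the 35116 windows of all genes. At least 4 cores were present in 5 member windows (8.77%), those of HK2, BNIP3, LDHA, ALDOC and LOX, against 3.22% of all windows. The base composition differed too, with a median GC content of 68.4% in member windows and 58.0% in all windows, and its part in the core counts was not tested. A match is a description of these letters and not of binding.

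In these 6 groups, 24 of the 36 measured members lay at least 4-fold apart between their highest and lowest group, against 41.9% of all 10892 measured genes. All folds between groups are ratios of CPM plus 1. The summed level of the 16 enzymes was 10994 CPM in MDA-MB-436-like, 10331 in MDA-MB-231-like, 9059 in Hs578T-like and 8637 in HCC38-like cells. It was 4739 CPM in MDA-MB-453-like and 4511 CPM in BT-474-like cells, so both luminal groups lay below all 4 triple-negative groups in this sum. GAPDH alone gave 1922 CPM of it in MDA-MB-453-like and 2034 CPM in BT-474-like cells. Single enzymes did not all follow, and MDA-MB-453-like cells were the highest group for 4 of the 15 measured enzymes (19.8% of all measured genes). Of the 180 steps between neighbouring groups in the order of each measured member, 24 had overlapping 95% counting intervals, among them MDA-MB-453-like and BT-474-like for SLC2A1.

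**Figure D1:**
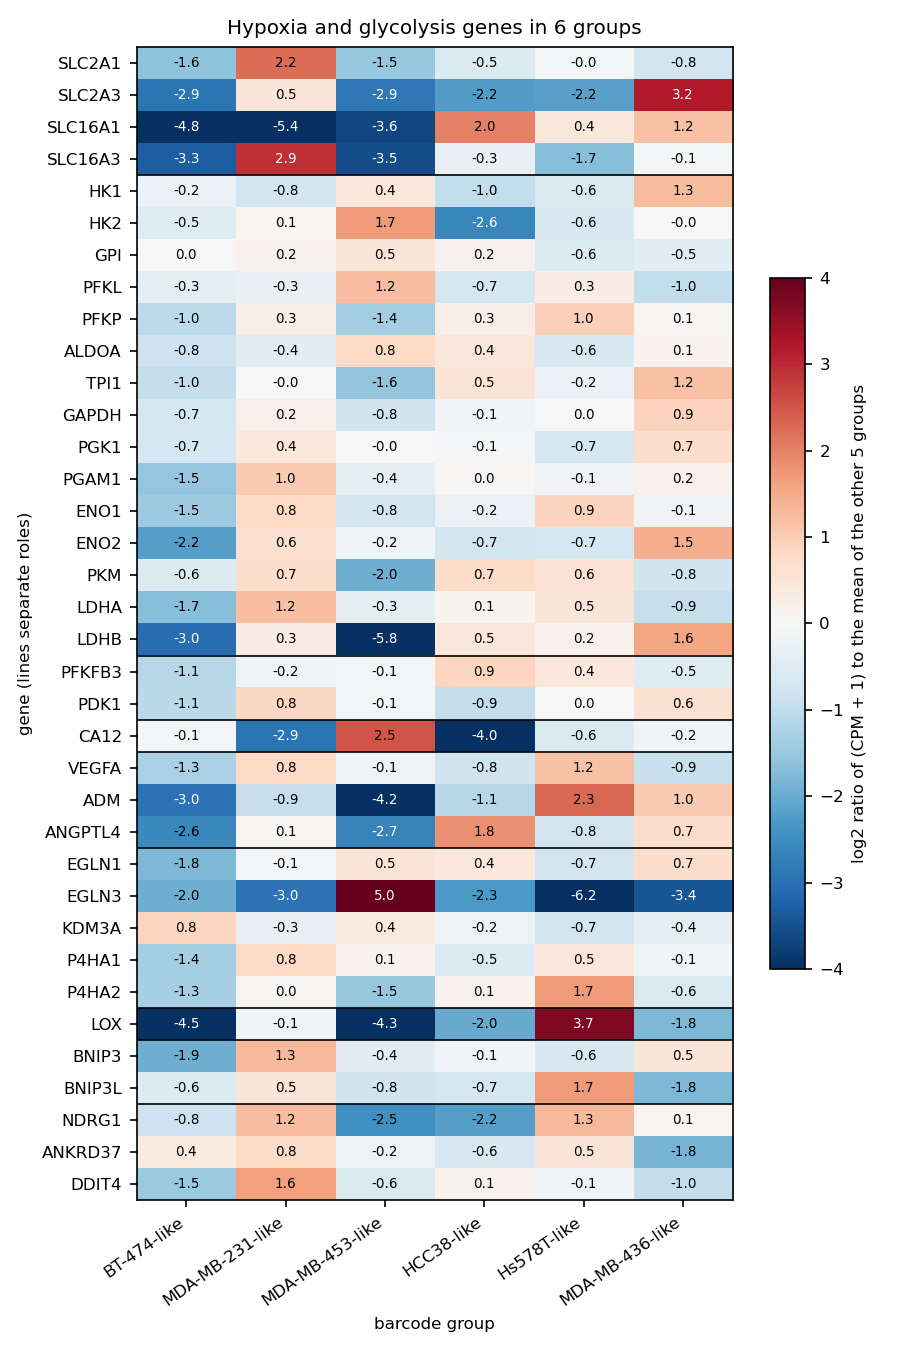
Log2 ratio of the CPM + 1 of each group to the mean of the other 5 groups (colour, value printed in each cell) for the 36 measured members in rows, with the 6 barcode groups in columns and lines between roles. The colour scale ends at 4 and -4. The BT-474-like column is blue in most rows, and EGLN3 in the MDA-MB-453-like column holds the highest value, 5.01.

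Transporters differed in kind as well as in level. SLC2A1, the ubiquitous glucose transporter GLUT1, was at 178 CPM in MDA-MB-231-like, 59.0 in Hs578T-like, 43.6 in HCC38-like, 37.7 in MDA-MB-436-like, 23.1 in MDA-MB-453-like and 21.5 in BT-474-like cells. The MDA-MB-231-like level was 2.97-fold above the next. SLC2A3, the high-affinity glucose transporter GLUT3, reached 27.9 CPM in MDA-MB-436-like and 8.77 CPM in MDA-MB-231-like cells and stayed at 0.157 to 0.904 CPM in the other 4 groups. Its level in Hs578T-like cells was 3.24% of that in MDA-MB-436-like cells of the same capture. This was under the 3.98% median of that line's 3 markers there, which ranged from 3.04% to 42%.

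The 2 lactate carriers showed different orders. SLC16A3 encodes MCT4, an exporter typical of glycolytic cells, and SLC16A1 encodes MCT1, which moves lactate in either direction. SLC16A3 was at 189 CPM in MDA-MB-231-like, 49.1 in MDA-MB-436-like, 43.4 in HCC38-like, 17.3 in Hs578T-like, 5.32 in BT-474-like and 4.31 in MDA-MB-453-like cells. SLC16A1 (ENSG00000155380, chr1:112911847-112957013, minus strand) was at 113 CPM in HCC38-like, 78.9 in MDA-MB-436-like, 52.9 in Hs578T-like, 3.06 in MDA-MB-453-like, 0.829 in BT-474-like and 0.176 in MDA-MB-231-like cells. All 3 groups of capture B thus lay above all 3 of capture A, and it was the only member with such an order, which 10.2% of all genes showed. The opposite order was found in 0 members and 5.34% of all genes. The line and the capture cannot be told apart here. At 10000 UMIs per cell, SLC16A1 was detected in 62.6% of HCC38-like, 53.4% of MDA-MB-436-like and 40.6% of Hs578T-like cells, against 0.240% of MDA-MB-231-like cells. Without thinning these shares were 92.2%, 88.1%, 83.2% and 0.516%. SLC16A3 made up 99.9% of the UMIs of both carriers in MDA-MB-231-like cells (95% interval 99.85 to 99.95), 86.5% in BT-474-like and 58.5% in MDA-MB-453-like cells. Its share was 38.3% in MDA-MB-436-like, 27.7% in HCC38-like and 24.7% in Hs578T-like cells. The SLC16A3 level of MDA-MB-453-like cells, at 2.28% of that in MDA-MB-231-like cells, was within the 2.38% median of the MDA-MB-231 markers there. That of BT-474-like cells, at 2.81%, was above the 1.94% median of these 5 markers but within their range of 0.561% to 8.19%. Neither level can be told apart from RNA of the MDA-MB-231-like cells, and the SLC16A3 shares of both groups carry this limit.

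**Figure D2:**
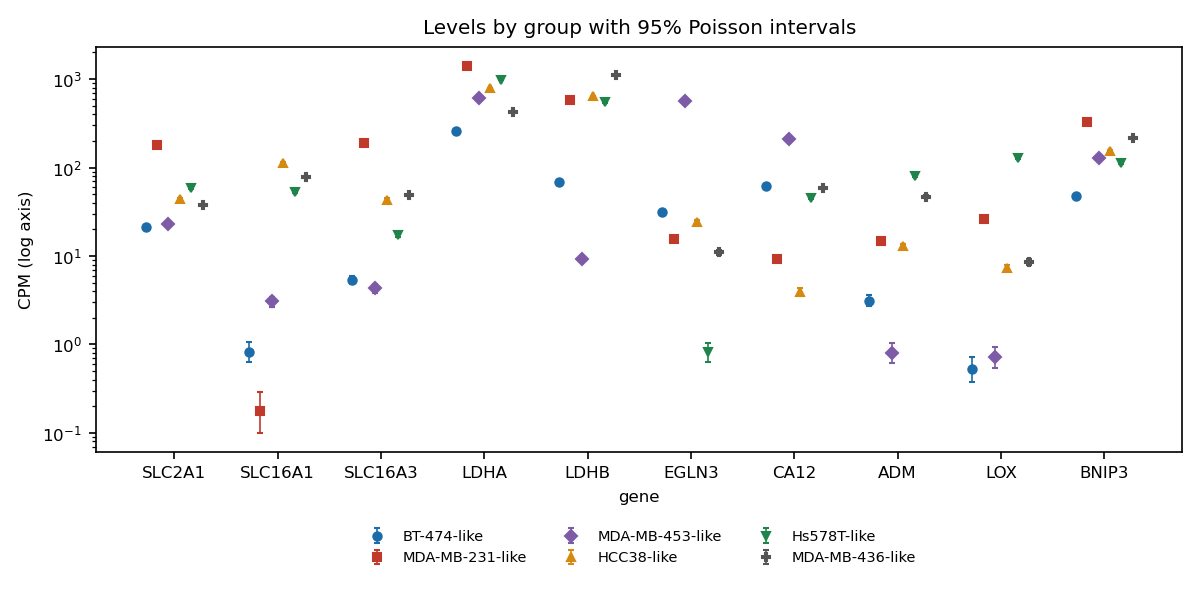
Level in CPM on a log axis of 10 members in each barcode group, with exact 95% Poisson intervals that cover counting error only (smaller than the symbol for most points). SLC16A1 separates the 3 groups of capture B (52.9 to 113 CPM) from those of capture A (0.176 to 3.06 CPM), and EGLN3 stands at 563 CPM in MDA-MB-453-like cells.

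Among the enzymes, the most abundant was GAPDH, the step that yields NADH, at 5095 CPM in MDA-MB-436-like and 1922 CPM in MDA-MB-453-like cells, its extremes. HK2, the inducible hexokinase of the first step, was at 31.7 CPM in MDA-MB-453-like, 13.4 in MDA-MB-231-like, 12.7 in MDA-MB-436-like, 9.31 in BT-474-like, 8.47 in Hs578T-like and 1.62 in HCC38-like cells. TPI1, which interconverts the triose phosphates, was at 1739 CPM in MDA-MB-436-like, 1269 in HCC38-like, 924 in MDA-MB-231-like, 808 in Hs578T-like, 526 in BT-474-like and 351 in MDA-MB-453-like cells. PGAM1, the phosphoglycerate mutase, was at 209.8 CPM in MDA-MB-231-like, 136 in MDA-MB-436-like, 123 in HCC38-like, 110.0 in Hs578T-like, 94.0 in MDA-MB-453-like and 45.8 in BT-474-like cells. GAPDH, TPI1 and PGAM1 were thus lowest in the luminal groups, whereas HK2 was highest in MDA-MB-453-like cells.

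ENO2, the neuronal form of enolase, was at 45.8 CPM in MDA-MB-436-like, 30.4 in MDA-MB-231-like, 19.1 in MDA-MB-453-like, 13.4 in Hs578T-like, 13.1 in HCC38-like and 4.47 in BT-474-like cells. PKM, the pyruvate kinase of most tumours, was at 1260.1 CPM in HCC38-like, 1237 in MDA-MB-231-like, 1155 in Hs578T-like, 598 in BT-474-like, 515 in MDA-MB-436-like and 244 in MDA-MB-453-like cells. The MDA-MB-436-like group, which led 6 of the 15 measured enzymes against 19.7% of all measured genes, was thus low for PKM. Apart from the lactate dehydrogenases, the remaining measured enzymes lay within 4-fold, from GPI, the glucose phosphate isomerase, at 1.81-fold between the groups to ENO1, the main enolase, at 3.97-fold. ALDOA, the main aldolase, was at 36.1 CPM in MDA-MB-453-like and 13.4 CPM in BT-474-like cells, and 42.3% of its exonic bases overlap those of the gene AC093512.2, which was at 0.114 to 0.627 CPM. The part of this overlap in the low ALDOA level was not tested.

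Among the enzyme pairs, the share of UMIs given by each gene ranged most widely for lactate dehydrogenase. LDHA, whose product favours lactate formation, was at 1418 CPM in MDA-MB-231-like, 970 in Hs578T-like, 791 in HCC38-like, 607 in MDA-MB-453-like, 427 in MDA-MB-436-like and 259 in BT-474-like cells. LDHB (ENSG00000111716, chr12:21635342-21757857, minus strand), the subunit typical of oxidative tissue, was at 1102 CPM in MDA-MB-436-like, 635 in HCC38-like, 577 in MDA-MB-231-like, 544 in Hs578T-like, 69.1 in BT-474-like and 9.35 in MDA-MB-453-like cells. LDHB made up 72.1% of both in MDA-MB-436-like cells (95% interval 71.8 to 72.4), 44.5% in HCC38-like, 35.9% in Hs578T-like, 28.9% in MDA-MB-231-like, 21.1% in BT-474-like and 1.52% in MDA-MB-453-like cells. In MDA-MB-453-like cells 5.53% had an LDHB UMI at 10000 UMIs per cell (10.7% without thinning), against 98.6% of MDA-MB-231-like cells (99.8%). The level there was 1.62% of that in MDA-MB-231-like cells, within the 2.38% median of the MDA-MB-231 markers, so expression at this level cannot be told apart from RNA of the other line.

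The other enzyme pairs each had their own order of groups. HK2 was 19.5% of both hexokinases in MDA-MB-453-like and 17.3% in MDA-MB-231-like cells, against 2.80% in HCC38-like cells, where HK1 carried nearly all UMIs. PFKP, the platelet form of phosphofructokinase, was 57.1% to 79.6% of PFKP and PFKL in 5 groups and 30.8% in MDA-MB-453-like cells. ALDOC reached 16.4% of both aldolases in MDA-MB-436-like cells, from 386 ALDOC UMIs, and at most 4.75% elsewhere. These shares depend on the low ALDOA level, and the part of the exon overlap of ALDOA in them was not tested. ENO2 was 0.763% to 4.45% of both enolases.

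**Figure D3:**
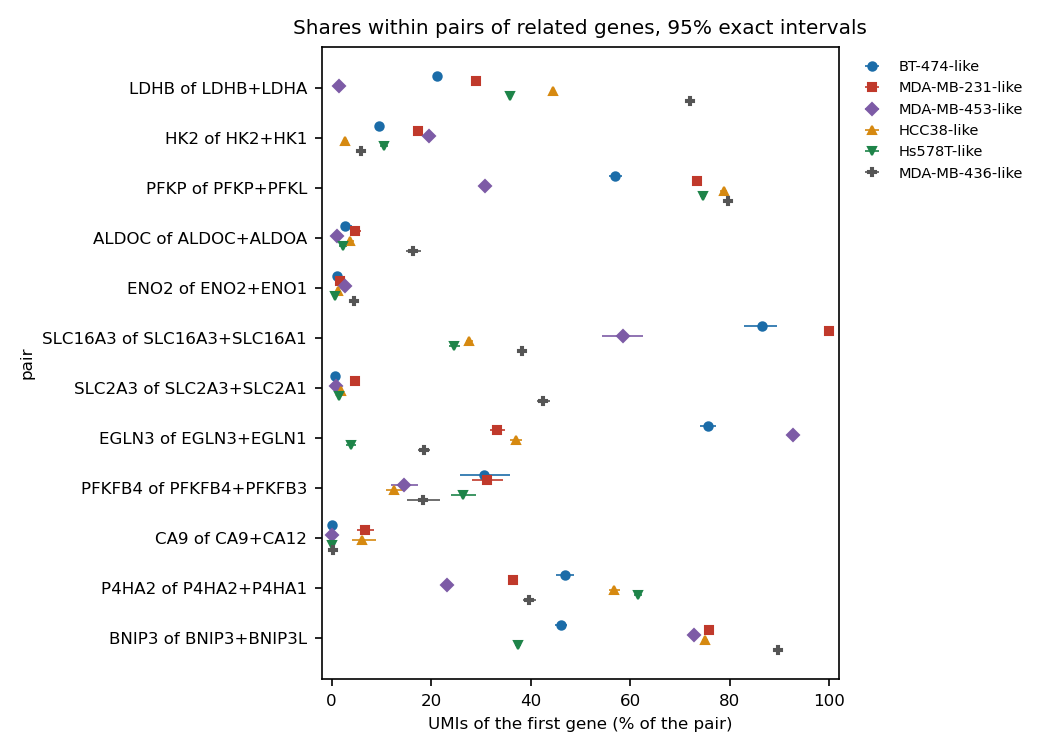
UMIs of the first-named gene as a percentage of both genes of a pair (x axis) for 12 pairs of related members (y axis), 1 point per barcode group with exact 95% Clopper-Pearson intervals for counting error. LDHB ranges from 1.52% to 72.1% of lactate dehydrogenase UMIs, while ENO2 stays under 4.45% of enolase UMIs.

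The regulators of flux were scarce. PFKFB3, which makes the activator of phosphofructokinase, was at 3.46 to 13.3 CPM and highest in HCC38-like cells, and PFKFB4 at 1.27 to 3.70 CPM. PDK1, a kinase that inhibits pyruvate dehydrogenase, was at 4.76 to 16.4 CPM and highest in MDA-MB-231-like cells. Of the carbonic anhydrases, which buffer the acid that glycolysis yields, CA9 was at most 0.658 CPM, although it is the classical HIF target of this family. CA12, which is also known as an oestrogen-responsive gene, was at 209.7 CPM in MDA-MB-453-like, 62.3 in BT-474-like, 59.2 in MDA-MB-436-like, 45.5 in Hs578T-like, 9.20 in MDA-MB-231-like and 3.95 in HCC38-like cells. Its highest level was 3.33-fold above the next.

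Secreted factors were highest in Hs578T-like or HCC38-like cells. VEGFA, the angiogenic growth factor, was at 85.8 CPM in Hs578T-like, 70.6 in MDA-MB-231-like, 42.0 in MDA-MB-453-like, 27.5 in HCC38-like, 26.0 in MDA-MB-436-like and 19.9 in BT-474-like cells. ADM, the vasodilator peptide adrenomedullin, was at 80.3 CPM in Hs578T-like, 46.7 in MDA-MB-436-like, 14.6 in MDA-MB-231-like, 12.8 in HCC38-like, 3.13 in BT-474-like and 0.810 in MDA-MB-453-like cells. ANGPTL4, an inhibitor of lipoprotein lipase, was at 13.4 CPM in HCC38-like, 7.56 in MDA-MB-436-like, 4.98 in MDA-MB-231-like, 2.64 in Hs578T-like, 0.129 in BT-474-like and 0.0653 in MDA-MB-453-like cells. ADM and ANGPTL4 were thus lowest in the luminal groups, while VEGFA stayed within 4.15-fold over all groups. The ADM level of MDA-MB-453-like cells was 5.55% of the MDA-MB-231-like level. For ANGPTL4 this share was 1.31% in MDA-MB-453-like and 2.58% in BT-474-like cells. All lay within the ranges of the MDA-MB-231 markers there, so they cannot be told apart from RNA of the MDA-MB-231-like cells.

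EGLN3 (ENSG00000129521, chr14:33924231-34462774, minus strand), a HIF prolyl hydroxylase that HIF itself induces, showed the largest step between the highest and the next group among the members. It was at 563 CPM in MDA-MB-453-like, 31.1 in BT-474-like, 24.3 in HCC38-like, 15.4 in MDA-MB-231-like, 11.002 in MDA-MB-436-like and 0.820 in Hs578T-like cells, a 17.6-fold step to BT-474-like cells. At 10000 UMIs per cell, 96.6% of MDA-MB-453-like cells had an EGLN3 UMI (99.3% without thinning), against 0.717% of Hs578T-like cells (3.28%). The BT-474-like and MDA-MB-231-like levels were 5.51% and 2.73% of the MDA-MB-453-like level, above the 5.13% and 1.75% medians of that line's markers in the same capture. These medians rest on 4 markers, which ranged from 0.953% to 41.7% in BT-474-like and from 1.29% to 3.82% in MDA-MB-231-like cells. Both EGLN3 levels lay within these ranges, so they cannot be told apart from RNA of the MDA-MB-453-like cells. EGLN1, the main oxygen sensor of the family, was at 48.4 CPM in MDA-MB-436-like, 44.6 in MDA-MB-453-like, 41.3 in HCC38-like, 30.9 in MDA-MB-231-like, 20.5 in Hs578T-like and 9.96 in BT-474-like cells. EGLN3 was 92.7% of both in MDA-MB-453-like cells, 75.7% in BT-474-like cells and 3.85% to 37.1% in the triple-negative groups. The shares in BT-474-like, MDA-MB-231-like and Hs578T-like cells carry the same limit as their EGLN3 levels.

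The other dioxygenases showed smaller steps between the highest and the next group than EGLN3. P4HA2, a subunit of collagen prolyl hydroxylase, was at 108 CPM in Hs578T-like, 48.8 in HCC38-like, 46.1 in MDA-MB-231-like, 31.8 in MDA-MB-436-like, 19.4 in BT-474-like and 16.9 in MDA-MB-453-like cells. P4HA1, an alternative isoform of that subunit, lay between 21.9 and 80.2 CPM, with MDA-MB-231-like cells highest. KDM3A, a histone demethylase, lay between 10.7 and 27.7 CPM and was the only member highest in BT-474-like cells. LOX, which crosslinks collagen and elastin, was at 127 CPM in Hs578T-like, 26.1 in MDA-MB-231-like, 8.50 in MDA-MB-436-like, 7.26 in HCC38-like, 0.719 in MDA-MB-453-like and 0.529 in BT-474-like cells. Its MDA-MB-436-like and HCC38-like levels were 6.7% and 5.7% of the Hs578T-like level. Those in MDA-MB-453-like and BT-474-like cells were 2.75% and 2.02% of the MDA-MB-231-like level. All lay within the ranges of the markers of the higher line there, so they cannot be told apart from RNA of that line. The highest LOX level was 4.71-fold and the highest P4HA2 level 2.19-fold above the next, both in Hs578T-like cells, a carcinosarcoma line of fibroblast-like form.

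The order of the groups differed between the mitophagy receptors, with MDA-MB-436-like cells second for BNIP3 and last for BNIP3L. BNIP3 was at 328 CPM in MDA-MB-231-like, 218 in MDA-MB-436-like, 153 in HCC38-like, 129 in MDA-MB-453-like, 112 in Hs578T-like and 47.9 in BT-474-like cells. BNIP3L, its close relative, was at 187 CPM in Hs578T-like, 104 in MDA-MB-231-like, 56.1 in BT-474-like, 51.3 in HCC38-like, 48.0 in MDA-MB-453-like and 24.8 in MDA-MB-436-like cells. BNIP3 made up 89.8% of both in MDA-MB-436-like cells and 37.6% in Hs578T-like cells.

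Of the remaining targets, NDRG1, a stress-responsive gene linked to differentiation, was at 29.8 CPM in Hs578T-like, 29.1 in MDA-MB-231-like, 15.4 in MDA-MB-436-like, 8.59 in BT-474-like, 2.89 in HCC38-like and 2.31 in MDA-MB-453-like cells. DDIT4 (ENSG00000168209, chr10:72273920-72276036, plus strand), an inhibitor of the growth kinase mTORC1, was at 79.1 CPM in MDA-MB-231-like, 36.7 in HCC38-like, 31.3 in Hs578T-like, 23.5 in MDA-MB-453-like, 18.3 in MDA-MB-436-like and 12.8 in BT-474-like cells. ANKRD37 was at 12.7 CPM in MDA-MB-231-like, 10.97 in Hs578T-like, 10.3 in BT-474-like, 6.92 in MDA-MB-453-like, 5.18 in HCC38-like and 1.84 in MDA-MB-436-like cells. In these 3 genes the order of the groups differed, and MDA-MB-231-like cells were first or second each time.

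The highest level of a member lay in MDA-MB-231-like cells for 9 members (13.2% of all measured genes), in Hs578T-like cells for 8 (15.6%), in MDA-MB-436-like cells for 8 (19.7%), in MDA-MB-453-like cells for 6 (19.8%), in HCC38-like cells for 4 (20%) and in BT-474-like cells for 1 (11.8%). Over all measured members, 9 had a highest group at least 2-fold above the next, against 17.1% of all measured genes. They were SLC2A1, SLC16A3 and DDIT4 in MDA-MB-231-like, HK2, CA12 and EGLN3 in MDA-MB-453-like, P4HA2 and LOX in Hs578T-like and SLC2A3 in MDA-MB-436-like cells. The HK2 and DDIT4 steps fell under 2-fold with a pseudocount of 10 CPM.

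Set against the mean of the other 5 groups, BT-474-like cells were at least 2-fold lower for 22 of the 36 measured members and higher for 0. Over all measured genes the shares were 27.1% lower and 7.35% higher, and the median log2 ratio was -1.32 for the members and -0.41 for all genes. The lower members included all 4 transporters, 6 of 15 measured enzymes, all 3 secreted factors and 4 of 5 dioxygenases. EGLN3 counted among these although the BT-474-like level of 31.1 CPM was the second highest. Each mean that includes MDA-MB-453-like cells holds their 563 CPM, and EGLN3 was called lower in all groups but that one. Against the other 2 groups of its own capture, 19 members were lower and 0 higher, beside 21.3% and 7.49% of all genes. Of the 4 transporters, 3 were lower in that comparison, and SLC16A1 was not called (log2 ratio -0.52). The mitochondrial share of this group was the highest of all. With mitochondrial genes left out of the total, 20 members were lower, and with cells of at most 10% mitochondrial UMIs, 18.

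In MDA-MB-453-like cells, 13 members were lower and 4 higher, beside 23.1% and 10.4% of all genes, with a median of -0.41 against -0.15. The higher ones were EGLN3, CA12, HK2 and PFKL, the liver form of phosphofructokinase. All 4 transporters were lower, with ratios between -3.63 and -1.51 on the log2 scale. Within the capture, 10 were lower (17.3% of all genes) and 7 higher (11.4%). SLC16A1 was among the higher ones in that comparison, with a log2 ratio of 1.43, and the other 3 transporters were lower.

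MDA-MB-231-like cells were higher for 7 members and lower for 3, beside 6.56% and 17.2% of all genes, with a median log2 ratio of 0.27 against -0.16. The higher ones were SLC2A1, SLC16A3, PGAM1, LDHA, BNIP3, NDRG1 and DDIT4, and the lower ones SLC16A1, CA12 and EGLN3. Within its capture 21 members were higher and 3 lower, beside 18.0% and 16.2% of all genes.

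In Hs578T-like cells 6 members were higher (VEGFA, ADM, P4HA2, LOX, BNIP3L and NDRG1) and 3 lower (SLC2A3, SLC16A3 and EGLN3), beside 9.64% and 17.4% of all genes. Within the capture 7 were higher and 6 lower, beside 9.78% and 15.7%. MDA-MB-436-like cells were higher for 7 (SLC2A3, SLC16A1, HK1, TPI1, ENO2, LDHB and ADM) and lower for 4 (EGLN3, LOX, BNIP3L and ANKRD37), beside 9.47% and 20.2% of all genes. Within the capture 5 were higher and 7 lower, beside 9.69% and 19.6%. In HCC38-like cells 2 were higher (SLC16A1 and ANGPTL4) and 7 lower, beside 10.4% and 13.4% of all genes, and within the capture 2 and 10, beside 14.9% and 13.6%. The median log2 ratio of the members was -0.016 in Hs578T-like cells, against -0.157 for all genes. It was -0.050 against -0.175 in MDA-MB-436-like cells and -0.212 against -0.021 in HCC38-like cells. The members thus lay above all genes in the first 2 of these groups and below them in HCC38-like cells.

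Genes of the same pathways outside the list were counted in BT-474-like and MDA-MB-231-like cells in the same way. Of 26 measured other glycolysis genes 9 were lower and 6 higher in BT-474-like cells, and of 41 measured other hypoxia genes 17 were lower and 4 higher, beside the 27.1% lower and 7.35% higher of all genes. BT-474-like cells were the highest group for 6 of these hypoxia genes (11.8% of all genes), among them HILPDA at 181 CPM. In MDA-MB-231-like cells 5 glycolysis genes were lower and 1 higher, and 8 hypoxia genes were lower and 7 higher, beside 17.2% and 6.56% of all genes. HIF1A, the oxygen-regulated subunit of HIF-1, was at 261 CPM in MDA-MB-231-like and 45.6 CPM in MDA-MB-453-like cells, its extremes. EPAS1, the corresponding subunit of HIF-2, was at 64.0 CPM in HCC38-like and 4.86 CPM in BT-474-like cells. These are transcript levels, and HIF is known to be set mainly by protein stability. Of these other genes, 3 were highest in 1 group by at least 4-fold. The hexokinase-like gene HKDC1 was at 38.5 CPM in MDA-MB-436-like cells and at most 4.35 CPM elsewhere, and the glucose transporter gene SLC2A12 at 16.8 CPM in HCC38-like cells and at most 2.49 CPM elsewhere. STC2, which encodes a secreted glycoprotein known to be induced by HIF and by ATF4, was at 337 CPM in Hs578T-like and 53.4 CPM in BT-474-like cells, the next.

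Co-variation between cells was measured within each group at 10000 UMIs per cell, as the Pearson correlation r of ln(1 + UMIs) over members with at least 0.2 UMIs per cell on average. The cells of a group share 1 library and 1 culture, so r describes these cells and carries no p-value. In MDA-MB-231-like cells (n = 2910), 14 of 276 member pairs had r of at least 0.2, against 0.0618% of all gene pairs. The counts were 6 of 276 in HCC38-like cells (n = 2468, 0.0888% of all pairs), 4 of 276 in Hs578T-like cells (n = 1953, 0.0511%) and 2 of 325 in MDA-MB-436-like cells (n = 2235, 0.0352%). No pair of 171 in BT-474-like cells (n = 2251, 0.115%) and of 253 in MDA-MB-453-like cells (n = 3419, 0.0710%) did. Abundant genes reach a given r more easily, so the count was repeated over genes with at least 1 UMI per cell. Then 13 of 91 member pairs had r of at least 0.2 in MDA-MB-231-like cells (0.439% of all such gene pairs), 6 of 66 in HCC38-like (0.491%), 3 of 78 in Hs578T-like (0.371%) and 2 of 45 in MDA-MB-436-like cells (0.321%). It was 0 of 55 in MDA-MB-453-like (0.453%) and 0 of 21 in BT-474-like cells (0.597%).

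Single members also differed in how unevenly their UMIs were spread over the cells of a group. A variance of at least 1.5 times the mean, at 10000 UMIs per cell, was found for 10 of 24 members in MDA-MB-231-like cells (8.54% of all genes), 9 of 24 in HCC38-like (13.0%), 9 of 24 in Hs578T-like (9.23%), 5 of 26 in MDA-MB-436-like (10.2%), 2 of 23 in MDA-MB-453-like (6.57%) and 2 of 19 in BT-474-like cells (6.99%). The ratio tends to grow with the level of a gene, and the members include many abundant ones. EGLN3 reached 3.53 in MDA-MB-453-like cells at 5.76 UMIs per cell, and DDIT4 reached 2.26 in Hs578T-like cells at 0.324 UMIs per cell, the highest ratio there after GAPDH and LDHA. BNIP3 had 2.46 in MDA-MB-231-like cells.

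The leading pairs were nearly all between enzymes. GAPDH and TPI1, which act next to each other in glycolysis and lie on the same chromosome, had the highest r in MDA-MB-231-like (0.45), MDA-MB-436-like (0.41), Hs578T-like (0.33), BT-474-like (0.19) and also MDA-MB-453-like cells (0.15). In HCC38-like cells ENO1 and LDHA came first (0.32), followed by GAPDH and TPI1 (0.31) and by LDHA and GAPDH (0.27). LDHA with TPI1 (0.34) and LDHA with PGK1 (0.32) followed in MDA-MB-231-like cells. GAPDH with LDHA (0.25) and with LDHB (0.22) followed in Hs578T-like cells, and GAPDH with LDHB (0.23) and TPI1 with LDHB (0.18) in MDA-MB-436-like cells. The next pairs were ENO1 with PKM (0.13) and GAPDH with PKM (0.11) in BT-474-like cells, and ENO1 with LDHA (0.14) and LDHA with GAPDH (0.10) in MDA-MB-453-like cells.

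**Figure D4:**
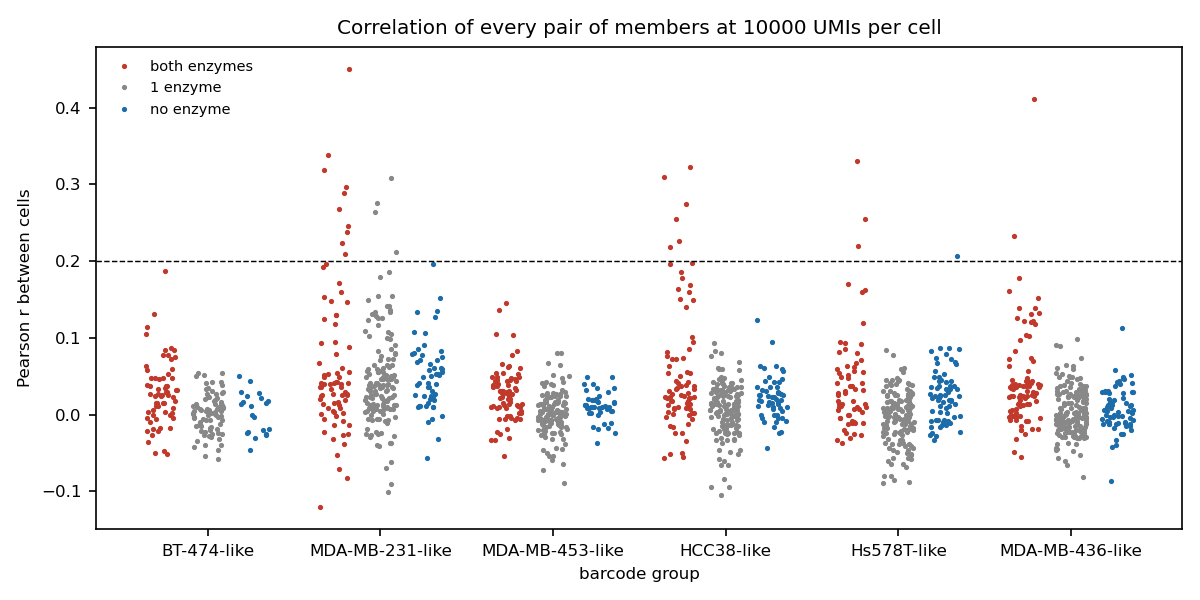
Pearson r between cells for every pair of members with at least 0.2 UMIs per cell, by barcode group and by whether both, 1 or neither gene of the pair is a glycolytic enzyme, at 10000 UMIs per cell. Points above the dashed line at 0.2 are pairs of enzymes, apart from 4 grey points in MDA-MB-231-like cells and 1 blue point in Hs578T-like cells.

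Pairs that joined an enzyme with another member passed 0.2 in MDA-MB-231-like cells alone, with 4 of 143 such pairs. They were BNIP3 with LDHA (0.31), TPI1 (0.28) and PGK1 (0.26), the 4 genes whose promoters are printed above, and VEGFA with TPI1 (0.21). The only pair without an enzyme was VEGFA with DDIT4 in Hs578T-like cells (0.21). A score of HIF-responsive members, the mean of standardised values over those of the 16 listed non-enzyme genes that were abundant enough, was set against a score of the enzymes. The score of HIF-responsive members held 5 genes in BT-474-like, 7 in MDA-MB-436-like and 8 in the other groups, and not the same ones. With this limit, the r between both scores was 0.31 in MDA-MB-231-like cells and between -0.02 and 0.04 in the other 5 groups.

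BNIP3 led this relation. It had r = 0.34 with the enzyme score in MDA-MB-231-like cells, where it averaged 3.32 UMIs per 10000, and r of 0.01 to 0.05 in the other groups, where it averaged 0.471 to 2.21 UMIs. LDHA had r = 0.30 and PGK1 r = 0.28 with the HIF score in MDA-MB-231-like cells, and both lay between -0.03 and 0.04 elsewhere. In these cells, the 970 cells of the highest tertile of the enzyme score had 4.60 BNIP3 UMIs per cell, against 2.42 in the lowest tertile, and 0.946 VEGFA UMIs against 0.532. SLC16A3 also moved with the enzymes there, at r = 0.21, while SLC2A1 did so at r = 0.06 and had r = 0.29 with the G2/M score. The enzyme score had r = -0.30 with the mitochondrial share in these cells, and the HIF score r = 0.00. With cell cycle scores, mitochondrial share and depth regressed out, the r of BNIP3 with the enzyme score was 0.34.

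Hs578T-like cells showed another relation. There the HIF score had r = 0.31 with a score of ATF4 target genes, of which 17 were abundant enough, against at most 0.06 in the other groups, and r = -0.01 with the enzyme score. The scores compared are not alike. DDIT4 and VEGFA were both in the HIF score of Hs578T-like cells, but neither was in that of BT-474-like cells. The HIF score of MDA-MB-436-like cells lacked DDIT4. DDIT4 had r = 0.42 and VEGFA r = 0.31 with the ATF4 score, while BNIP3 was at 0.05 and P4HA1 at -0.03. In the highest tertile of the ATF4 score (651 cells) DDIT4 averaged 0.740 UMIs per cell, against 0.0584 in the lowest tertile, and VEGFA 1.28 against 0.579. LDHA had r = -0.15 and TPI1 r = -0.13 with the same score. In the other groups where they were abundant enough, DDIT4 reached at most 0.09 and VEGFA at most 0.15 with the ATF4 score. VEGFA was less abundant in those groups, which limits r. From the lowest to the highest ATF4 tertile it went from 0.197 to 0.345 UMIs per cell in MDA-MB-436-like cells. It went from 0.335 to 0.454 in MDA-MB-453-like, 0.242 to 0.327 in HCC38-like and 0.701 to 0.737 in MDA-MB-231-like cells. The ATF4 score itself had r = -0.28 with the S-phase score in Hs578T-like cells. With cell cycle scores, mitochondrial share and depth regressed out, the r of DDIT4 was 0.39 and that of VEGFA 0.28.

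**Figure D5:**
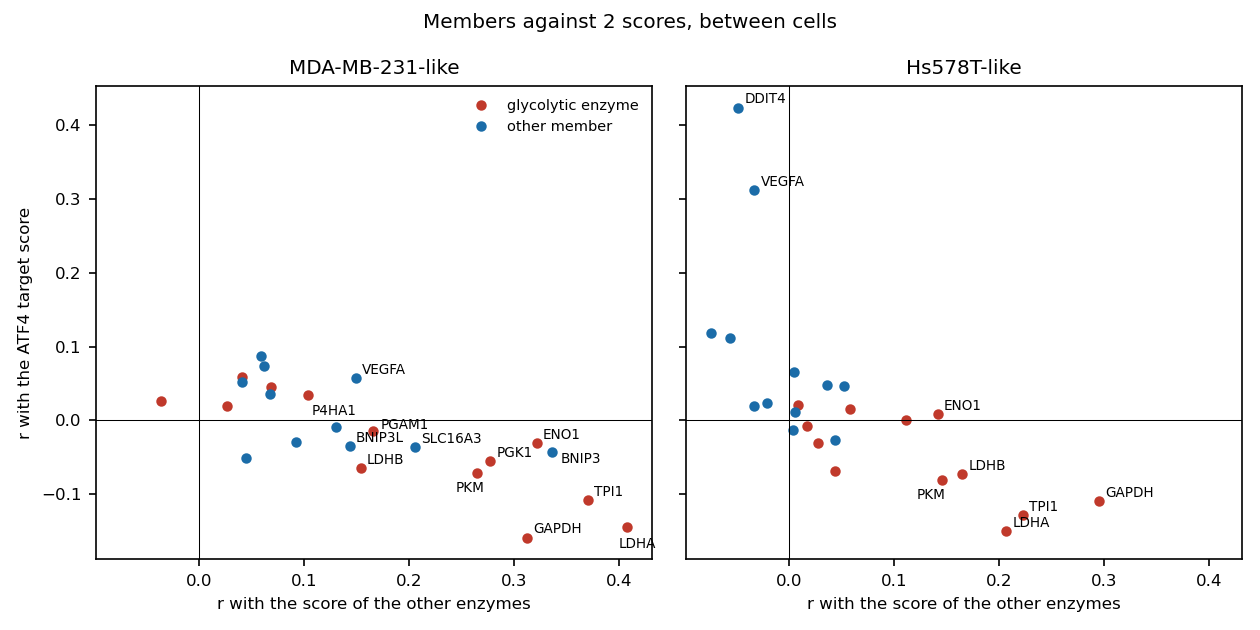
Correlation r between cells of each member with the score of the other enzymes (x axis) and with the ATF4 target score (y axis), in MDA-MB-231-like cells (left) and Hs578T-like cells (right). BNIP3 lies among the enzymes at 0.34 on the x axis on the left, and DDIT4 (0.42) and VEGFA (0.31) stand high on the y axis on the right.

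The genes outside the list with the highest r with the HIF score differed between the groups. In Hs578T-like cells they were HSPA5 (0.21), a chaperone of the endoplasmic reticulum, TRIB3 (0.21), SLC3A2 (0.21) and ATF4 (0.20), which belong to the ATF4 list, and NUPR1 (0.19). In MDA-MB-231-like cells they were CTSD (0.22), a lysosomal protease, TXNIP (0.20), which limits glucose uptake, ERRFI1 (0.18), S100A4 (0.17) and TMSB10 (0.17). In the remaining groups the leading r was 0.14 or lower, with TIMP3, NEAT1, MXD4, ITPR1 and NEU1 in HCC38-like and ASPH, IL1R1, TEX9 and GRB2 in MDA-MB-453-like cells. SPEN, SAR1B, NAMPT, PSAP and RNF145 led in MDA-MB-436-like cells, and SHROOM3, RARRES1, BZW1, CAPN7 and CNOT1 in BT-474-like cells, at r of 0.10 or lower.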

How the data were processed

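The authors deposited raw UMI counts of 36601 genes and 12 oligos in 17605 barcodes. Per the file headers, Cell Ranger 6.1.2 made the matrix, and per the submitters' processing notes the build was GRCh38. How cells were called and oligos assigned is not given in those sources. The oligo with the highest count was that of the barcode's own group in all 17605 barcodes. Ensembl IDs and symbols are those of the matrix, and coordinates and overlaps come from the GENCODE annotation of GRCh38.

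UMIs were summed per group over the kept cells (489.4 M) and given as CPM of gene UMIs, with exact Poisson intervals, and shares have exact Clopper-Pearson intervals, all at 95%. PCR duplicates are collapsed by UMI, and the intervals cover counting error only. Log2 ratios used a pseudocount of 1 CPM, and a call needed 2-fold. Full values are given for members at 10 CPM or more that lay at least 4-fold apart, then the 3 leading pairs and 5 leading outside genes per group, of which 1 gene is not reported here. No doublet caller was run; 398 cells with transcripts of another line of their capture were kept and left out in an alternative. Cells were thinned to 10000 UMIs with 1 seed. Scripts were tested on simulated data. For TMM scaling alone, edgeR 4.0.16 ran in R 4.3.3, and the other steps used scipy 1.17.1, pandas 2.3.3 and numpy 2.4.6 in Python 3.11.15.

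The members, gene lists and comparisons were chosen with earlier results of these data known. The score tertiles were added after the data were seen and are ranges of a score, not cell types.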

Additional observations from a re-analysis of the deposited data

How the results depend on the processing

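No paired analysis was possible because each line is 1 culture and the groups share no replicate numbers, and no result came from a test. TMM scaling moved the median log2 ratio of all genes in BT-474-like cells to -0.24, against -0.41 with CPM, and in HCC38-like cells to -0.27, against -0.02; with it 19 members were lower and 1 (KDM3A) was higher in BT-474-like cells. With a pseudocount of 10 CPM, 1 member was 2-fold higher in HCC38-like cells. Against the other 2 groups of the capture, 21 members were higher in MDA-MB-231-like and 7 in MDA-MB-453-like cells, and 6 were lower in Hs578T-like and 7 in MDA-MB-436-like cells. Without thinning, the pairs with r of at least 0.2 numbered 40 in MDA-MB-231-like, 19 in HCC38-like, 10 in Hs578T-like, 9 in MDA-MB-436-like, 4 in BT-474-like and 2 in MDA-MB-453-like cells, and r was 0.48 for BNIP3 with the enzyme score, 0.57 for DDIT4 and 0.45 for VEGFA with the ATF4 score. With cells of at most 10% mitochondrial UMIs, BT-474-like cells had 5 such pairs. With Spearman's rho, MDA-MB-436-like cells had 1. The cause of these changes was not tested. Of the other recomputed counts and correlations that answer a comparison, 160 stayed within 1.5 times of the reported count or within its spread, and none changed sign. Among the values of single members, 155 moved beyond their counting interval and 372 did not. Levels under 1 CPM, such as those of CA9, have the widest counting intervals relative to their size.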
